A study of Mus musculus with 2 samples.

Results

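The genes described here are 7 transcription factor genes of the sympathoadrenal lineage: Phox2a, Hand1, Hand2, Insm1, Isl1, Tfap2b and Epas1. They were chosen by symbol from what is known of the lineage, with earlier results of these data known, and were 7 of 21851 protein-coding genes of the mm10 annotation. The assay was DNase-seq, in which DNase I cuts open chromatin in isolated nuclei, so that accessible sites appear as peaks of cutting. The tissue was the whole adrenal gland of female mice aged 36 days from strain B6CASTF1/J, the F1 hybrid of C57BL/6J and CAST/EiJ, with no treatment or engineered allele named. There was 1 group of 2 libraries, labelled biological replicates 1 and 2; the samples carry different animal numbers but share a donor record. No other tissue, age or genotype was compared, so every contrast below is between genes or sites within a library, and the error is the spread between the replicates.

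Chromaffin cells of the adrenal medulla and sympathetic neurons arise from neural crest progenitors, in which a network of homeodomain, helix-loop-helix, zinc finger and AP-2 factors switches on the genes for catecholamine synthesis. Phox2a is a paired-type homeodomain factor, Isl1 is a LIM homeodomain factor, Hand1 and Hand2 are basic helix-loop-helix factors that pair with E proteins, Insm1 is a zinc finger repressor of neuroendocrine cells, and Tfap2b is an AP-2 factor. Epas1 encodes HIF-2 alpha, the oxygen-regulated subunit that pairs with Arnt; it is prominent in chromaffin cells and also in endothelium. The medulla is the smaller compartment of the gland, beside a steroidogenic cortex, so that in bulk chromatin fewer cells of a type and less open chromatin per cell cannot be told apart.

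The peaks that carry the results are shown first, as mm10 reference sequence (that of C57BL/6J, not of the CAST/EiJ chromosomes) on the plus strand, 5′ to 3′. Capitals mark bases inside footprints of both libraries; a footprint is a short stretch protected from cutting within open chromatin. Annotated UTR bases were left off. The first pair comprises the highest peaks of the 7 genes at a transcription start site (TSS), those of Epas1 (chr17:86753421-86753699) and Isl1 (chr13:116309690-116309860).
Epas1 promoter: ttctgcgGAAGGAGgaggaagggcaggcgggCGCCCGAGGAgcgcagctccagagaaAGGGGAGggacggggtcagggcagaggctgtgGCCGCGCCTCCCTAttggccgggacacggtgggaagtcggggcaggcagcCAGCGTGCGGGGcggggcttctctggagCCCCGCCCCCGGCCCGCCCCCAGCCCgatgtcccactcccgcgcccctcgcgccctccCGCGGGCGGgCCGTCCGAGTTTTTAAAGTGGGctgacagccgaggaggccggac
Isl1 promoter: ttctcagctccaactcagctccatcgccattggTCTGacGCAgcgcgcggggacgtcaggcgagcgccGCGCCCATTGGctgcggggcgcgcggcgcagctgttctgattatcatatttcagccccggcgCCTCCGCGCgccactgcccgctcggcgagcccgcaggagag
The others lie away from a TSS, and were the tallest of their loci in both libraries or held a known element under a shared footprint. They are sites of Insm1 (chr2:146226661-146226820), Hand1 (chr11:57820081-57820260), Hand2 (chr8:57363041-57363220 and chr8:57328621-57328820), Tfap2b (chr1:19205701-19205860), Epas1 (chr17:86781861-86782040) and Phox2a (chr7:101821961-101822142, the part of the peak before the UTR).
Insm1 at 4.82 kb: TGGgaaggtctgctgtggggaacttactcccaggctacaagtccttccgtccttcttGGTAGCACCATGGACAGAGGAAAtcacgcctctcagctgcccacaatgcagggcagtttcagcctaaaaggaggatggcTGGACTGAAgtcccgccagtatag
Hand1 at 12647 bp: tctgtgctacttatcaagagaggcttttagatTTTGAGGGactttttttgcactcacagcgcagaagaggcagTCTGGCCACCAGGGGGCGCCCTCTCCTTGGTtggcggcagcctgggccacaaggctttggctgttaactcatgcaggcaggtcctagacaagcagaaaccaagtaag
Hand2 at 42148 bp: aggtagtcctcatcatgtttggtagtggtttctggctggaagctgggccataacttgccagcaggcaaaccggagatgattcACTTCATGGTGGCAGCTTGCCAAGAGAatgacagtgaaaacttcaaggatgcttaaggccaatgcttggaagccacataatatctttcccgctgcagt
Hand2 at 7738 bp: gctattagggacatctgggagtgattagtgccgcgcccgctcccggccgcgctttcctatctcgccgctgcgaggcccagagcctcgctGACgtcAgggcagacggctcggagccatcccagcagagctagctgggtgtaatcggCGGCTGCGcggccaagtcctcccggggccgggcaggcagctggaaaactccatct
Tfap2b upstream: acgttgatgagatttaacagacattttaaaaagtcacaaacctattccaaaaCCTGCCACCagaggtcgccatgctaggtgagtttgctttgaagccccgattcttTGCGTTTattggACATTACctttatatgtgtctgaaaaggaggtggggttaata
Epas1 at 28251 bp: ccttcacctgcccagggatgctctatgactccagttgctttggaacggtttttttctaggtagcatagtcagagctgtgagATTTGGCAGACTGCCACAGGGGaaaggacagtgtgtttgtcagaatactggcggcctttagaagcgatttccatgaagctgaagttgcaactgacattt
Phox2a at 3.80 kb: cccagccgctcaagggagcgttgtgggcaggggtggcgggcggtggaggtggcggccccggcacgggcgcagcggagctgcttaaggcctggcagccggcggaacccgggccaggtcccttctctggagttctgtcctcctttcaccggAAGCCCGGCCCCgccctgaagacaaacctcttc

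Deposited peak heights are a signal, and how it was scaled is not stated in the sources used here. The longer peak list of each library held 157595 peaks in replicate 1 and 166206 in replicate 2, with 297594 and 298189 footprints. Heights ran higher in replicate 2, by 0.38 on the log2 scale at the median of 126336 paired peaks, by 0.55 at promoter peaks and by 0.30 at distal ones, so heights were read within a library. A promoter peak is here the tallest peak that reaches within 1 kb of any TSS of the gene. A distal peak has its centre over 1 kb from every TSS and lies in the gene's domain, meaning the gene itself plus 50 kb on each side, or less where a protein-coding TSS comes sooner.

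Accessibility at the TSS separated the 7 genes widely. Epas1 had a tall promoter peak, Isl1 one of middle height, and Phox2a, Hand2, Insm1 and Tfap2b low ones, while Hand1 had none in either library. Thus 6 of 7 genes had a promoter peak in each library, against 68.6% of all protein-coding genes in replicate 1 and 69.5% in replicate 2. These shares were not matched for CpG content, and the 6 include Tfap2b, whose peak reaches within 1 kb of a TSS with its edge alone. The median promoter height of the 7, with Hand1 at 0, was 0.813 in replicate 1 and 1.46 in replicate 2, against 2.96 and 4.45 over all genes. The CpG content of their promoters is above the ordinary: the observed over expected CpG ratio had a median of 0.694 against 0.483 over all genes, and over the 3 upper of 5 equal classes of that ratio the median height of replicate 1 was 4.72, 8.55 and 10.2. Each gene was therefore also ranked within its CpG class. Hand1, at height 0, stood at percentile 15.7 and 15.2 of all genes but at 6.0 and 5.11 of its class. A smaller share of that class than of all genes therefore lacked a peak.

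Epas1 (chr17:86753700-86833410) measured 11.5 in replicate 1 and 15.6 in replicate 2, a mean of 13.5 ± 2.85 (SD, n = 2). It stood at percentile 81.5 and 78.0 of all genes and at 68.4 and 61.5 of its CpG class. Of the 7 genes it was the one above its class median, which was 8.55 and 12.8. Its promoter sequence above has 74.2% G and C and 8 footprint pairs shared between the libraries, covering 107 of 279 bases. GGGCGG, the box bound by SP and KLF factors, occurs 4 times in it on either strand, each time overlapping a footprint in both libraries.

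Isl1 (chr13:116298281-116309689, minus strand) measured 3.77 and 4.26, a mean of 4.01 ± 0.352 (SD, n = 2). That was near the median of all genes (percentile 53.3 and 49.5) but low in its CpG class (15.9 and 12.2). The printed sequence holds 4 shared footprint pairs, and one of them covers the letters ATTGG, the minus-strand form of the NF-Y box CCAAT. A lower peak further upstream of the TSS, at 0.476 and 0.927, was also found in both libraries.

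Insm1 (chr2:146221921-146225020) measured 1.12 and 1.78, a mean of 1.45 ± 0.468 (SD, n = 2), in a promoter whose CpG ratio of 0.950 was the highest of the 7. It lay at percentile 40.4 and 41.3 of all genes and at 5.14 and 5.42 of its CpG class. The signal around this low promoter was wide at the looser of 2 limits. Positions with a false discovery rate under 0.05 covered 1722 bases within 1 kb of the TSS in replicate 1 and 1598 in replicate 2, more than in Epas1 in replicate 1 (1631) and slightly fewer in replicate 2 (1645). This put Insm1 at percentile 96.0 and 92.2 of all genes for covered bases. At the stricter limit of 0.001 the covered bases were 787 and 1226 in Insm1 and 1449 and 1353 in Epas1, against a median of 455 and 541 and an upper quartile of 878 and 967.5 over all genes. Insm1 was thus below that quartile in replicate 1 and above it in replicate 2, and the likeness to Epas1 in width held at the looser limit. In each library 4 separate low peaks lay in that stretch, some upstream of the TSS and some inside the gene. Among 1704 genes with at least 1500 covered bases in both libraries, a limit set after the Insm1 values were seen, the median promoter height was 11.4 and 17.0, and 4 genes in replicate 1 and 7 in replicate 2 were lower than Insm1. Epas1 was at percentile 50.7 and 44.8 of the same genes.

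Hand2 (chr8:57320983-57324633) measured 0.813 and 1.02, a mean of 0.914 ± 0.143 (SD, n = 2), with a CpG ratio of 0.816. Its percentile was 37.7 and 37.2 among all genes and 3.36 and 3.16 in its CpG class. A further low peak near the start of its divergent antisense gene Hand2os1, at 0.598 and 0.706, was found in both libraries. The covered width was modest, at 525 and 523 bases.

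Phox2a (chr7:101818313-101822726) had a pair of low promoter peaks, and which one was taller differed between the libraries. The peak across the TSS measured 0.813 and 0.953, and the one upstream of it 0.673 and 1.46. The tallest value per library therefore gave 1.14 ± 0.455 (SD, n = 2), at percentile 37.7 and 39.8 of all genes and 20.3 and 22.8 of its CpG class.

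Tfap2b (chr1:19208914-19238576) had the lowest promoter value of the 6 genes with a peak, 0.514 and 0.468, a mean of 0.491 ± 0.0326 (SD, n = 2). That peak is intronic, its centre lies 1030 bp from the nearest TSS, and its edge alone reaches the promoter window, so it is counted among the distal peaks as well. Covered bases in the window were 69 and 65. Tfap2b stood at percentile 34.5 and 32.7 of all genes and at 4.61 and 3.11 of its CpG class.

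Hand1 (chr11:57828705-57832818, minus strand) had no peak near either annotated TSS, and no listed position under 0.05 in the window in either library. No openness was detected there, and whether depth limited this was not tested.

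**Figure D1:**
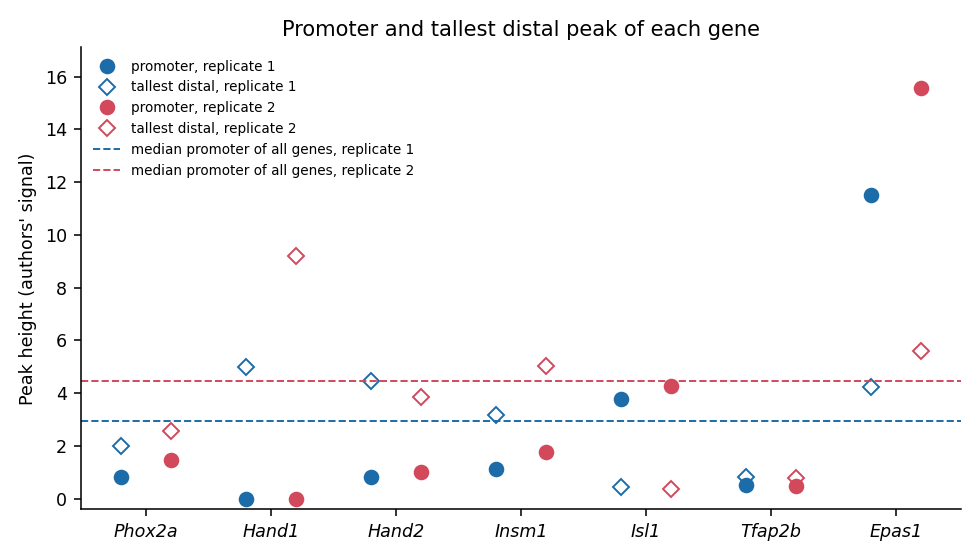
Peak height (authors' signal, vertical axis) of the promoter (filled circles) and of the tallest distal peak (open diamonds) of each gene, replicate 1 in blue and replicate 2 in red; dashed lines give the median promoter height of all genes, 2.96 and 4.45. Epas1 promoters, at 11.5 and 15.6, stand above the rest, Isl1 promoters lie between 3.77 and 4.26, and in Phox2a, Hand1, Hand2, Insm1 and Tfap2b the diamonds lie above the circles.

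**Figure D2:**
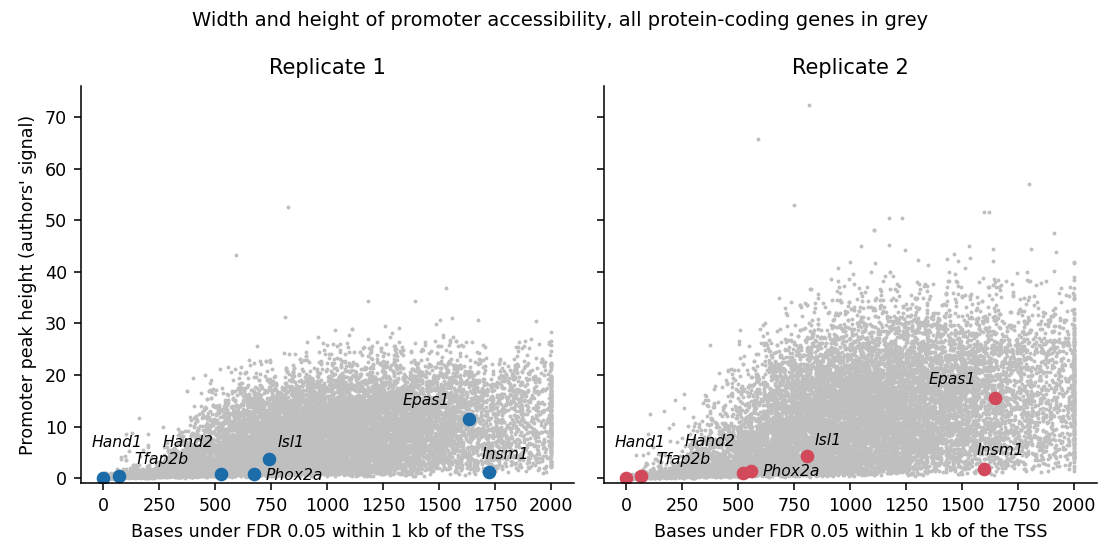
Bases under a false discovery rate of 0.05 within 1 kb of the TSS (horizontal axis) against promoter peak height (authors' signal, vertical axis), each grey point 1 protein-coding gene and each coloured point 1 of the 7 genes. Insm1, with 1722 and 1598 bases, lies at the lower edge of the cloud, whereas Epas1, with 1631 and 1645 bases, lies in its middle.

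Away from the TSS the order was different. In 4 of the 6 genes with a promoter peak (Phox2a, Hand2, Insm1 and Tfap2b) the tallest distal peak exceeded the promoter peak in both libraries. Over all genes with a promoter peak of any height, 27.2% had such a distal peak in replicate 1 and 27.5% in replicate 2. Those shares were not matched for promoter height. The 4 promoters were low, between percentile 32.7 and 41.3 of all genes, and a low promoter peak is more easily exceeded. The ratio of the tallest distal peak to the promoter was 5.48 and 3.80 in Hand2, 2.82 and 2.83 in Insm1, 2.45 and 1.76 in Phox2a and 1.62 and 1.64 in Tfap2b. In Epas1 it was 0.368 and 0.361, and in Isl1 0.114 and 0.0828. Hand1, with no promoter peak, had the tallest distal site of the 7 genes.

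That Hand1 site lies between genes, 12647 bp downstream of the TSS, and measured 4.99 and 9.20, a mean of 7.09 ± 2.97 (SD, n = 2). It was taller than most distal peaks, at percentile 97.2 and 98.3. Its printed sequence carries a match to the motif of CTCF, the chromatin insulator protein, under a long footprint of both libraries. The motif of CTCF was matched in 8.08% of all distal windows of 200 bp in replicate 1 and in 7.76% in replicate 2. This form of the motif, also used for the sites below, was added after the sequences had been seen. The next Hand1 site, 4.87 kb from the TSS just past the gene's end, measured 0.981 and 1.62, and a site of 1.70 and 2.50 lies near the start of the neighbouring gene Sap30l. Further upstream sites were between 0.430 and 1.38, and 1 of them is nearer to Gm12244.

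Hand2 had a pair of tall distal sites, both downstream of the gene and both intergenic. The far one, 42148 bp from the TSS, measured 4.46 and 3.86, a mean of 4.16 ± 0.424 (SD, n = 2), and was at percentile 96.3 and 90.4 of distal peaks. The log2 ratio of replicate 2 to replicate 1 was −0.21, inside the range of −0.69 to 1.00 that held the middle 90% of distal pairs. Its shared footprint covers TGGCAGCTTGCCAA, a match on the minus strand to TTGGCNNNNNGCCA, the palindrome of NFI factors. That palindrome was found in 1.32% and 1.40% of all distal windows. It was added to the search after the sequences had been seen, so these shares do not measure how unusual the match is. The far site also holds TGATTCA, a match to the AP-1 site TGANTCA, which overlaps a footprint in both libraries. Its last base alone lies in the shared stretch. TGANTCA was present in 22.1% and 19.1% of all distal windows. The near one, 7.74 kb from the TSS, measured 2.13 and 3.12, a mean of 2.62 ± 0.697 (SD, n = 2). It holds TGACGTCA, the full cyclic AMP response element, which overlaps a footprint in both libraries and was present in 0.437% and 0.440% of all distal windows. Both sites are nearer to the TSS of 5033428I22Rik than to that of Hand2, and these data do not link them to either gene.

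The tallest Insm1 site, 4.82 kb downstream of the TSS and between genes, measured 3.16 and 5.04, a mean of 4.10 ± 1.33 (SD, n = 2), at percentile 92.2 and 93.8 of distal peaks. All 3 footprints of replicate 1 overlapped footprints of replicate 2, and the longest shared stretch covers AGCACCATGGACAG. This is a match to AGCACCNNGGACAG, the core of the element of REST, a repressor of neuronal genes. The element was present in 0.223% of distal windows in replicate 1 and in 0.236% in replicate 2. Its letters were added to the search after the sequences had been seen, so these shares do not measure how unusual the match is. Another site, 34.8 kb away in an intron of Ralgapa2, measured 0.776 and 1.17 and holds a CTCF match under a shared footprint. A lower site, in the Insm1 coding exon, measured 0.617 and 1.15.

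Phox2a distal sites lay close together in coding exons at the end of the gene and of its neighbour Inppl1, which encodes a lipid phosphatase. The tallest by mean, 3.80 kb from the TSS, measured 1.99 and 2.36, a mean of 2.17 ± 0.259 (SD, n = 2). Next came the Inppl1 site at 5.03 kb, with 1.60 and 2.57, and a Phox2a site at 3.56 kb with 1.39 and 2.20. Within the printed Phox2a sequence the shared footprint overlaps both CCGGAAG, the ETS box, and the minus-strand GGGCGG box. A low pair of sites far upstream, in an intron of Clpb, was nearer to Gm45380 and measured between 0.388 and 0.916.

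Tfap2b had low sites throughout. Its tallest, 3.13 kb upstream, measured 0.832 and 0.768, a mean of 0.800 ± 0.0451 (SD, n = 2), near the middle of all distal peaks (percentile 52.0 and 45.4). In it 3 footprint pairs were shared, as many as in the taller site of Insm1, and one overlaps a CTCF match. The other shared site was the intronic one that reaches the promoter window.

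Epas1 had many distal sites, most of them intronic. Those tallest by mean over the libraries were at 16.3 kb in an intron, with 3.63 and 5.61 (mean 4.62 ± 1.41, SD, n = 2), at 28251 bp in an intron, with 3.70 and 4.25 (3.98 ± 0.392), and 21.4 kb upstream, with 3.11 and 4.68 (3.89 ± 1.11). The site at 28251 bp holds an NFI palindrome, TTGGCAGACTGCCA, under a shared footprint, a pattern likewise added after the sequences had been seen. A further intronic site, at 47.7 kb, was the tallest distal site of Epas1 in replicate 1, at 4.24, but measured 2.67 in replicate 2, a log2 ratio of −0.67 near the lower end of that range. For many of the intronic sites an annotated TSS other than that of Epas1 is the nearest.

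Isl1 was the opposite case. Its domain of 111.4 kb held 1 distal peak in each library, and these were not the same site: 0.430 at 4.14 kb upstream in replicate 1 and 0.353 downstream of the gene in replicate 2. The median for genes of like domain length was 7 in each library, and Isl1 stood at percentile 13.8 and 13.1 of them.

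**Figure D3:**
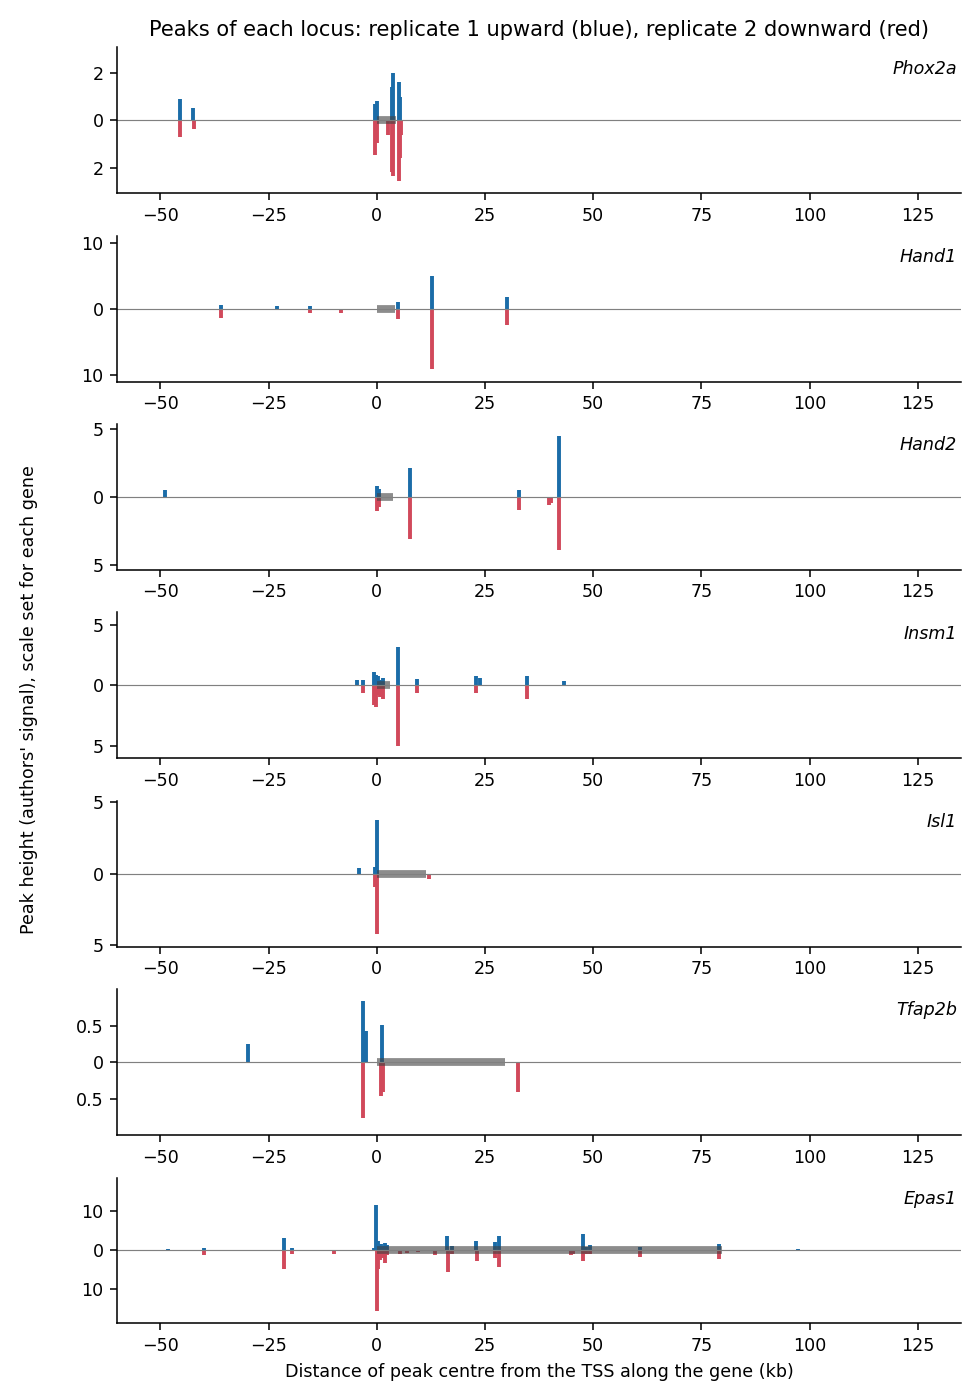
Peaks of each locus by distance of the peak centre from the TSS along the gene (kb, horizontal axis; the grey bar is the gene body) and height (authors' signal, vertical axis, scaled for each gene), replicate 1 upward and replicate 2 downward. Hand1 shows 1 site of 4.99 and 9.20 downstream and nothing at the TSS, whereas Isl1 shows its signal at the TSS and Epas1 has sites along the gene body.

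Distal peaks numbered 6 and 8 in the Phox2a domain, 6 and 6 in Hand1, 4 and 5 in Hand2, 9 and 6 in Insm1, 1 and 1 in Isl1, 4 and 4 in Tfap2b and 18 and 23 in Epas1 (replicates 1 and 2). The median of the 7 was 6 in each library, against 4 and 5 over all genes. Longer domains hold more peaks, so each gene was ranked within 1 of 10 equal classes of domain length. Epas1 was then at percentile 85.3 and 92.0 and Insm1 at 89.4 and 69.0, Phox2a at 61.3 and 73.3 and Hand1 at 54.4 and 52.7. Hand2 was at percentile 43.2 and 49.7 and Tfap2b at 31.1 and 30.7. Insm1 owes its higher rank in replicate 1 to 3 low peaks, between 0.364 and 0.570, that were absent from replicate 2.

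**Figure D4:**
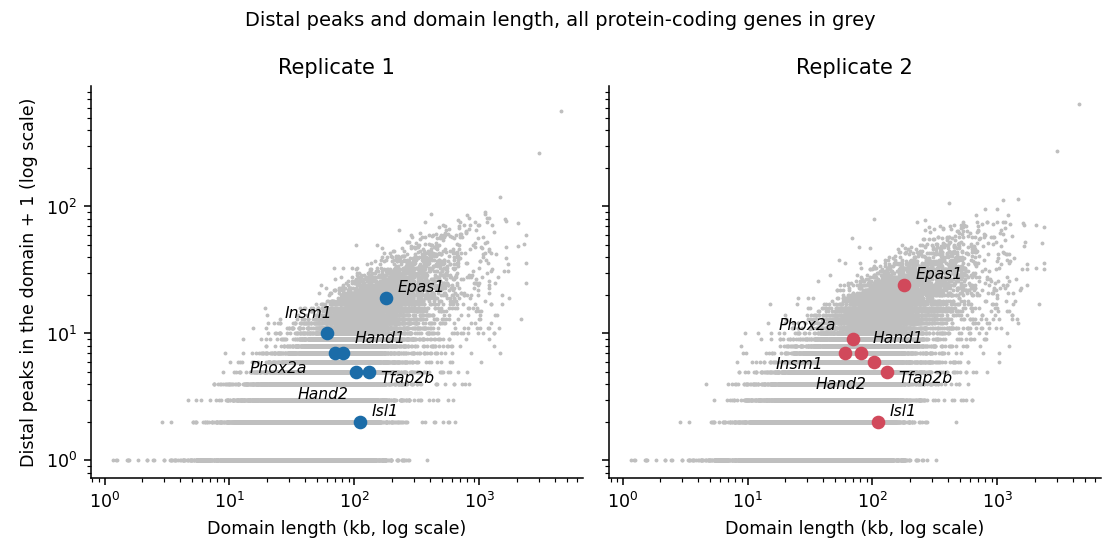
Domain length (kb, log scale) against the number of distal peaks plus 1 (log scale), each grey point 1 protein-coding gene, the 7 genes in colour. Epas1, with 18 and 23 distal peaks, lies high for its length and Isl1, with 1 in each library, lies low.

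Of the distal peaks of the 7 domains, 38 of 48 in replicate 1 (79.2%) and 38 of 53 in replicate 2 (71.7%) overlapped a peak of the other library. The shares over all distal peaks were 77.8% and 74.1%, so the sites of these genes recurred about as often as any. By gene the counts in replicates 1 and 2 were 6 of 6 and 6 of 8 in Phox2a, 5 of 6 and 5 of 6 in Hand1, 3 of 4 and 3 of 5 in Hand2, 6 of 9 and 6 of 6 in Insm1, 0 of 1 and 0 of 1 in Isl1, 2 of 4 and 2 of 4 in Tfap2b, and 16 of 18 and 16 of 23 in Epas1.

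Footprints lay in 40 of 62 peaks of the 7 loci in replicate 1 (64.5%) and in 45 of 66 in replicate 2 (68.2%), against 74.2% and 72.3% of all peaks. Taller peaks hold footprints more often, and peaks of like height held one in 76.3% and 80.3% of cases. The share was lower than at like height in both libraries at 5 of the loci: Hand1 (2 of 6 and 4 of 6 peaks, against 76.5% and 84.3%), Hand2 (3 of 6 and 4 of 7, against 77.7% and 76.5%), Insm1 (7 of 13 and 5 of 10, against 68.8% and 81.9%), Isl1 (2 of 3 and 2 of 3, against 67.9% and 73.0%) and Epas1 (16 of 22 and 20 of 26, against 83.7% and 85.5%). It was higher in both at Phox2a (7 of 8 and 9 of 10, against 82.2% and 77.8%), and at Tfap2b it was higher in replicate 1 and lower in replicate 2 (3 of 4 and 1 of 4, against 51.3% and 54.4%). The Isl1 share rests on 3 peaks in each library and was close to that at like height in replicate 1. The mean number of footprints per peak differed less: 1.76 and 1.56 in the 7 loci, against 1.67 and 1.68 at like height. By this measure Isl1 was above like height in both libraries (2 and 1.667, against 1.415 and 1.568), as was Phox2a. Hand1 and Hand2 were below it in both, and Insm1 was above it in replicate 1 alone. Epas1 was nearly level in replicate 1 (2 against 2.019) and below in replicate 2 (1.808 against 1.909). Tfap2b was above in replicate 1 (1.75 against 0.7898) and nearly level in replicate 2 (0.75 against 0.7515). A footprint of these loci overlapped one of the other library in 50.5% and 48.5% of cases, against 54.3% and 53.3% of all footprints inside peaks. In the Hand2 peak at the TSS there were 3 footprints in replicate 1 and 0 in replicate 2, and in its other promoter peak 0 and 2. In the Insm1 promoter peak furthest upstream there were 4 and 0.

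**Figure D5:**
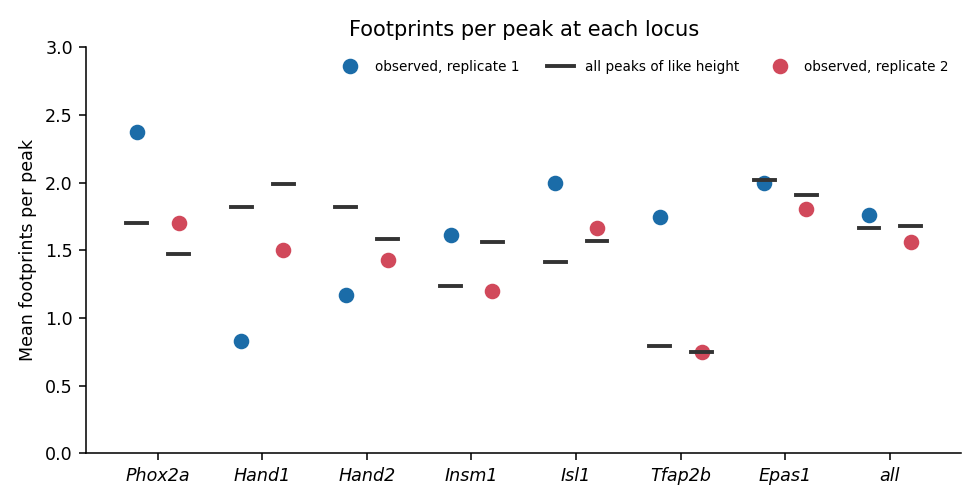
Mean number of footprints per peak (vertical axis) at each locus and over all 7, replicate 1 in blue and replicate 2 in red, with a black bar for all peaks of like height. Phox2a, with 2.38 and 1.70 footprints per peak, and Isl1, with 2 and 1.667, lie above their bars. Hand1 lies below its bars, with 0.833 and 1.5, and the loci together differ little from theirs.

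Motif letters were counted on both strands in windows of 200 bp around peak centres. The Tfap2b peak whose edge reaches the promoter window was counted here among the distal windows and not among the promoter windows. GGGCGG was in 12 of 48 distal windows of the 7 loci in replicate 1 (25.0%) and in 12 of 53 in replicate 2 (22.6%), against 7.11% and 7.93% of all distal windows. These windows were spread over 6 of the 7 loci, with 4 and 5 in Epas1, 3 and 2 in Insm1 and 2 and 2 in Phox2a. The windows were also richer in G and C, with a median of 53.8% and 55.5% against 50% and 51%, and the part of that in the count was not tested. CCGGAAG was in 3 and 4 distal windows (6.25% and 7.55% against 1.56% and 1.69%), but in 0 of 14 and 0 of 13 promoter windows (against 8.1% and 7.92% of all promoter windows). In each library 1 of these distal windows was the Tfap2b peak that reaches the promoter window, so the 0 depends on where that peak is counted. AGATAA, the GATA box, was in 2 of 48 and 2 of 53 distal windows (4.17% and 3.77%, against 9.73% and 9.07%). In promoter windows the order was the other way, with AGATAA in 2 of 14 and 2 of 13 windows (14.3% and 15.4%, against 4.0% and 3.81% of all promoter windows). With so few windows none of these shares is precise.

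Motifs of the factors themselves were counted in the same way. TAATTA, the homeodomain core, was in none of the windows, against 2.68% and 2.53% of all distal windows, and TAATNNAAT, a paired homeodomain site, was in no distal window (against 1.65% and 1.46%) and in 1 of 14 and 1 of 13 promoter windows (7.14% and 7.69%, against 0.591% and 0.559% of all promoter windows). CTAATG, a core bound by Isl1, was in 5 and 5 distal windows (10.4% and 9.43%, against 6.88% and 6.44%). The E-box CATCTG, of the kind bound by Hand factors with E proteins, was in 16.7% and 13.2% of distal windows against 18.0% and 18.3%, and CAGCTG in 18.8% and 11.3% against 17.2% and 18.0%. GCCNNNGGC, the AP-2 site, was in 12.5% and 15.1% against 8.76% and 9.41%. ACGTG, the HIF core, was in 8 and 8 distal windows (16.7% and 15.1%, against 11.3% and 11.7%), 5 of them in Epas1 in each library. Epas1 also held 18 of the 48 distal windows in replicate 1 and 23 of the 53 in replicate 2. TGANTCA, the AP-1 site, was in 18.8% and 11.3% against 22.1% and 19.1%, and CAAGGTCA, the site of the steroidogenic factor SF-1, in 3 and 3 windows (6.25% and 5.66%, against 5.48% and 5.14%). ACAAAG, the SOX core, was in 14.6% and 11.3% against 15.6% and 15%, CCAAT in 14.6% and 17.0% against 23.4% and 22.4%, and GCGCNTGCG, the NRF1 site, in 0 of 48 and 1 of 53 distal windows (0 and 1.89%, against 0.401% and 0.452%) and in 1 of 14 and 0 of 13 promoter windows (7.14% and 0, against 6.20% and 5.98%). CCANNAGGG, a shorter CTCF core, was in 12.5% and 13.2% of distal windows against 6.68% and 6.91%, and the fuller CTCF motif used for the sites above was in 10.4% and 9.43% against 8.08% and 7.76%.

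Genes that work with the 7 factors differed in how open their promoters were. Partner genes of the lineage (Gata2, Gata3, Tfap2a, Sox4, Sox11, Hmx1, Tlx2 and Tbx2) had a promoter peak in 8 of 8 in each library, with a median height of 1.72 and 2.41. The tallest was Sox4, at 10.5 and 15.3, and the peak counted for Hmx1 is nearest to another gene, E130018O15Rik. Paralogs of the 7 factors had a peak in 7 of 8 genes analysed, a median of 1.56 and 2.72, and Hif1a as the tallest at 15.7 and 22.9, while Tfap2d had none. E proteins and the Id inhibitors that compete for them, which bear on Hand1 and Hand2, were open in 7 of 7 genes, with a median of 12.0 and 17.0, from Tcf12 at 4.86 and 6.22 to Id2 at 17.9 and 23.0. The LIM cofactors of Isl1 had a median of 4.46 and 8.44 in 7 of 7 genes, from Lmo3 at 0.570 and 0.918 to Lmo4 at 12.0 and 17.7. The corepressors recruited by Insm1 had a median of 13.7 and 21.9 in 4 of 4 genes, from Hdac2 at 5.82 and 8.67 to Rcor1 at 19.1 and 28.4.

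Around Epas1, the other HIF pathway genes all had a promoter peak (8 of 8), with a median of 8.41 and 13.2. Hif3a was lowest, at 2.93 and 5.46, and Hif1a was taller than Epas1. HIF target genes had a peak in 7 of 8, with a median of 9.16 and 13.4. Pdk1 was the tallest of them at 20.3 and 31.1, Car9 had none, and the peak counted for Epo is nearest to Gnb2.

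Marker genes of the gland's cell types give the setting for the 7 promoters, whose median was 0.813 and 1.46. Heights in these lists were not matched for CpG content, and their promoters were poorer in CpG than those of the 7 genes. The median CpG ratio was 0.694 in the 7 genes, 0.453 in the catecholamine genes and 0.489 in the granins. It was 0.160 in the cortex markers, 0.298 in endothelium, 0.333 in capsule and stroma and 0.305 in Schwann cells. Genes of catecholamine synthesis and transport had a median of 0.738 and 0.989, with a peak in 7 and 8 of 9 genes; Ddc had none, and the tallest value, counted for Slc18a1, belongs to a peak nearest to Atp6v1b2. Granins and prohormone processing genes had a peak in 8 of 8, and a median of 2.40 and 4.68, from Pcsk1 at 0.421 and 0.636 to Chgb at 10.4 and 17.0. Marker genes of the steroidogenic cortex had a median of 4.88 and 7.06, with a peak in 9 and 8 of 10 genes (Hsd3b1 had none; Fdx1 was tallest at 11.0 and 16.8), and a median of 15 and 19.5 distal peaks against 6 and 6 in the 7 genes. Median distal counts were 11 and 9 for the catecholamine genes, and 4.5 and 3.5 for the granins. Distal counts of these lists were not matched for domain length. The median domain was 103.7 kb in the 7 genes, 112.2 kb in cortex markers and 126.0 kb in catecholamine genes. It was 109.2 kb in granins and 128.6 kb in endothelial markers. Endothelial markers, which bear on Epas1, had a median promoter height of 1.83 and 2.45 with a peak in 11 and 12 of 12 genes, with Flt1 as the tallest at 4.39 and 6.62 and Pecam1 at 0 in replicate 1, and a median of 13 and 15.5 distal peaks. Capsule and stroma markers had a median of 0.790 and 1.08 (7 and 8 of 10 genes; Col3a1 and Lum had none; Pdgfra was tallest at 5.49 and 9.16), and Schwann cell markers 0 and 0.530 (1 and 3 of 5; S100b and Cdh19 had none; Erbb3 was tallest at 1.74 and 3.34). The part of cell makeup in the heights of the 7 genes was not tested.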

How the data were processed

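DNase-seq libraries of 2 replicates were used, each on its own. Peak heights, deposited by the authors, are a signal; the sources used here do not give its scaling, aligner or peak caller. The authors' deposited tables of false discovery rates (q-values) list positions under 0.05, and the deposited footprint lists hold a constant p-value of 0.01, so footprints were used by position. Per the labels, the build was mm10, and each sample's own notes describe its files as made without pooling. The longer of the 2 peak lists of each library was used. Gene models were GENCODE release 21 for mouse. Sequence came from the RefSeq copy of the same build.

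Heights of 0 stood for no peak. Percentiles count ties at their mid-rank. Domain ranks used 10 classes of length, CpG ranks 5 classes and footprint rates 10 classes of height. Peaks overlapped when they shared at least 1 bp. With 1 group of 2 replicates no test was possible and values are given per library with mean ± SD. Depth in reads was not analysed here, so no counting interval is given. The 7 genes, 13 other gene lists and the motifs were chosen with earlier results of these data known, and the REST, NFI and CTCF (by name) motifs were added after the sequences had been seen. Some genes of these lists are not reported here, and the list counts and medians leave them out. Named were all 7 genes, the promoter peak and 3 tallest shared distal peaks of each, distal peaks taller than the promoter, genes nearer to those peaks, and the tallest, the lowest or the peakless genes of a list. The code was tested on simulated peaks (Python 3.11.15, numpy 2.4.6, pandas 2.3.3, pysam 0.24.0, matplotlib 3.10.9). Alternatives were the shorter peak list, other promoter windows and flanks, 1 TSS per gene, stricter overlap, peaks above the median height, scaled heights and each library left out.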

Additional observations from a re-analysis of the deposited data

How the results depend on the processing

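The median number of distal peaks per domain, 6 over both libraries, moved to 3.5 with the shorter peak list, to 3.5 with flanks of 10 kb, to 15.5 with flanks of 200 kb and to 2.5 with peaks above the median height. The share of distal peaks found in both libraries, 75.4%, rose to 96.3% among peaks above the median height. The share of peaks with a footprint, 66.3%, rose to 77.3% with the shorter list. The cause of these moves was not tested beyond their construction: fewer, taller peaks or longer and shorter domains. Promoter heights moved for Tfap2b alone, to 0 with the shorter list and with a promoter window of 500 bp, which left 5 genes with a promoter peak in both settings. Leaving out a replicate gives the value of the other library alone, and with 2 libraries the mean then always moves by less than their SD, so this says nothing about stability. The distal count of Isl1 was 0 with the shorter list and 5.5 with flanks of 200 kb. No paired analysis was possible because there is 1 group, and the shared share needs both libraries, so it has no value without one of them. What depth limits could not be measured, since read numbers were not analysed here.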
